A study of Caenorhabditis elegans with 12 samples.

Results

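The let-7 family of *C. elegans* comprises 7 microRNA genes, *let-7*, *mir-48*, *mir-84*, *mir-241*, *mir-793*, *mir-794* and *mir-795*. Their mature products share a seed, the stretch near the 5′ end by which a microRNA pairs with its target messages. Every microRNA of the count table whose hairpin precursor is one of these genes was taken, which gave 13 of the 368 mature microRNAs, with both arms of 6 hairpins and the single arm listed for *mir-793*. They were followed in whole wild-type (WT) worms of the strain N2 at day 1 (D1), day 7 (D7), day 14 (D14) and day 21 (D21) of adulthood, with 3 biological replicates at each age and 12 libraries in all. The 4 groups shared strain and genotype, no drug is named for any of them, and age is the only difference between them that the labels name. Each library was made from a pool of worms handpicked into TRIzol. Worms were moved to fresh plates in early adulthood to keep them apart from their progeny, and dead worms and those with internal hatching were taken off the plates, so the older groups hold the worms that had lived to that age. In whole worms, fewer cells of a type and less RNA per cell cannot be told apart.

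The family is best known as a clock of larval development. *mir-48*, *mir-84* and *mir-241* act together at the passage between the middle larval stages, where they repress *hbl-1*, and *let-7* acts later, at the passage from larva to adult, where it represses *lin-41*. The RNA-binding protein LIN-28 blocks the maturation of let-7, and the nuclear hormone receptor DAF-12 controls the transcription of *mir-84* and *mir-241*. Roles of *mir-793*, *mir-794* and *mir-795* are much less studied. All ages measured here lie after these passages, in adult worms, and the levels at D1 were compared with those of the later ages.

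The hairpins lie at 5 places in the genome (WBcel235 annotation, whose coordinates were matched by gene name, since the count table holds none). *let-7* (WBGene00002285) is on the minus strand of chromosome X with its hairpin at 14744173 to 14744271, inside an annotated primary transcript of up to 1732 bases. *mir-84* (WBGene00003312) is on the minus strand of X at 16022404 to 16022478, and *mir-793* (WBGene00045327) on the plus strand of X at 13857962 to 13858053. *mir-48* (WBGene00003039) and *mir-241* (WBGene00003335) are neighbors on the minus strand of chromosome V, at 14364412 to 14364509 and at 14366188 to 14366283, with 1678 bases between the hairpins. *mir-795* (WBGene00045329) and *mir-794* (WBGene00045328) are neighbors on the plus strand of chromosome I, at 12594569 to 12594657 and at 12595690 to 12595773, with 1032 bases between them. No other annotated gene overlaps any of the 7 hairpins. The annotated mature arms are 21 to 24 nt long, so counts of 2 members stand for products of nearly the same length. Library preparation can capture different small RNAs with different efficiency, so an order of members is an order of their counts.

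The libraries held 5784056 to 16867232 counts, with the smallest and the largest total both at D1. Marker microRNAs of muscle (*mir-1*), intestine (*mir-60*), neurons (*mir-124*, *lsy-6*), glia (*mir-228*) and of germline and embryos (*mir-35* to *mir-42*, 3p arms) had counts in every library. A single arm of *mir-60* was at 0 in some. Counts above 0 in libraries of this size are only a weak check of the whole-worm label. Levels are CPM, the counts of a library brought to a common total with TMM normalization. Differences between ages were tested with edgeR (quasi-likelihood, all 12 libraries fitted together), and p-values carry the Benjamini-Hochberg adjustment for the 245 microRNAs that passed the filter on low counts. Of the 13 arms of the family, 12 were tested, and let-7-3p was left out for its low counts. The standard error (SE) of a log2 fold change is that of the fit. Comparisons with D1 share the same 3 D1 libraries, so they are not independent of each other, and each is given with its own values.

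The members took opposite courses. let-7-5p and both arms of miR-241 fell by more than an order of magnitude from D1 to D21, the arms of miR-795 and miR-793 fell by less, both arms of miR-84 rose, and miR-48-5p, the most abundant member, and the arms of miR-794 had no call at D21. At D7 against D1, 1 of the 12 arms tested was higher and 4 were lower, where 21.2% of all 245 microRNAs were higher and 18.0% lower. At D14 against D1, 2 were higher and 6 lower, beside 34.3% and 34.7% of all microRNAs. At D21 against D1 the counts were again 2 higher and 6 lower, beside 35.1% and 35.9%. Beside this background, lower arms were somewhat more and higher arms somewhat fewer than among all microRNAs, a difference of few arms. Arms of the same hairpin are not independent of each other. At D21 the lower arms included both of miR-241 and both of miR-795, and the higher arms were those of miR-84. The members differed from each other more clearly, in the size and the sign of their changes. The median log2 fold change of the 12 arms was -0.28, -0.50 and -0.57 at D7, D14 and D21, while that of all microRNAs tested was -0.01, -0.12 and -0.06. The libraries did not overlap those of D1 for 8 of the 12 arms at D7 (54.7% of all microRNAs tested), for 9 at D14 (69.8%) and for 9 at D21 (73.5%).

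**Figure D1:**
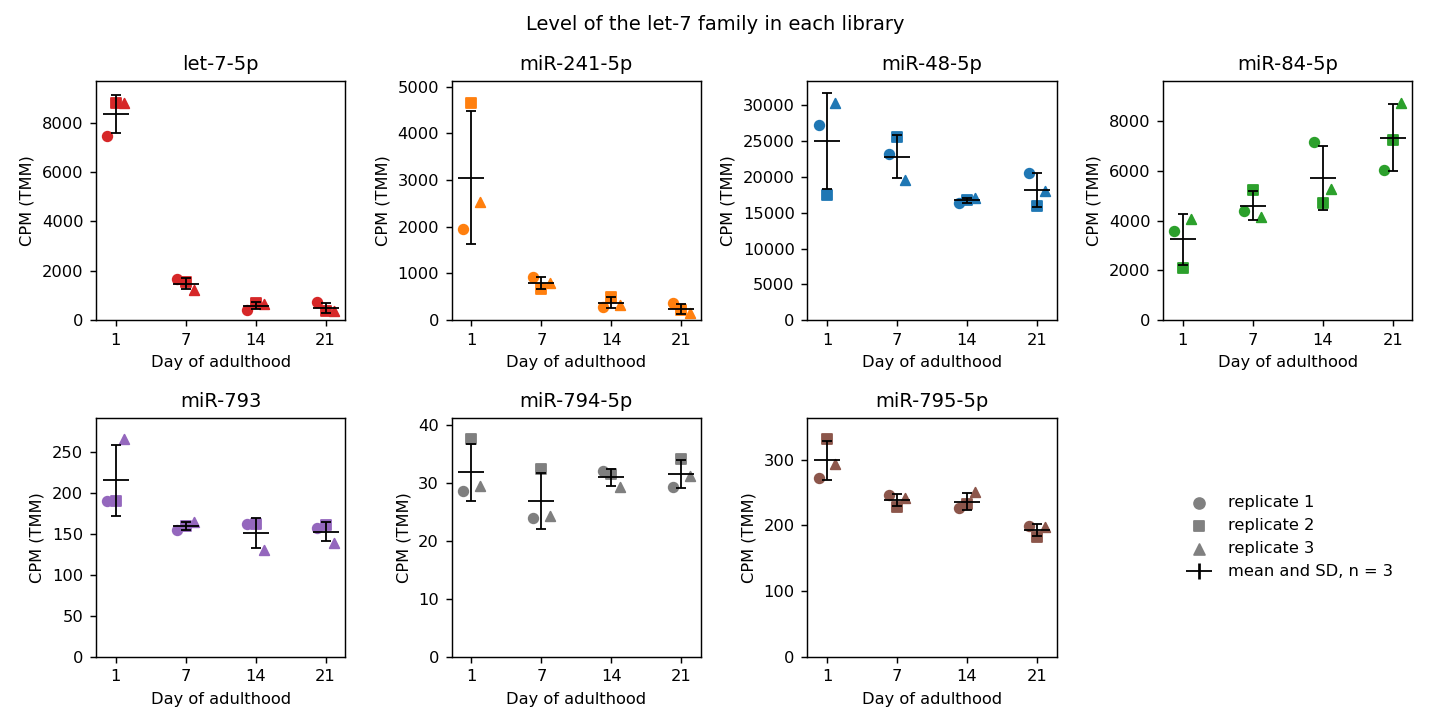
Level of the 7 seed-bearing arms of the family (CPM after TMM, y axis from 0, one scale per panel) against the day of adulthood, with a point for each library (shape: replicate) and the mean ± SD of 3 libraries. let-7-5p drops from 8358 ± 766 at D1 to 487 ± 205 at D21 and miR-84-5p climbs from 3245 ± 1024 to 7332 ± 1356.

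let-7-5p, the functional arm of *let-7*, lost most of its level in the first week of adulthood. It stood at 7473, 8801 and 8800 CPM in the D1 libraries, at 1672, 1542 and 1217 CPM at D7, at 418, 672 and 649 CPM at D14, and at 723, 353 and 385 CPM at D21. Every D7 library lay below every D1 library, and every D14 and D21 library below every D7 library, whereas the libraries of D14 and D21 lay among each other. The mean fell from 8358 ± 766 CPM (SD, n = 3) to 1477 ± 234 at D7, which is 5.66-fold lower, and to 487 ± 205 at D21, which is 17.2-fold lower than at D1. The log2 fold change against D1 was -2.50 at D7 (SE 0.29, adjusted p = 1.0e-05 from edgeR), -3.85 at D14 (adjusted p = 1.1e-07) and -4.10 at D21 (SE 0.32, adjusted p = 6.3e-08). Between D7 and D14 the log2 fold change was -1.35 (SE 0.28, adjusted p = 0.00242 from edgeR), and the difference between D14 and D21 was -0.25 with a 95% interval of -0.85 to 0.35. In rank by mean CPM it went from the 25th of the 368 microRNAs at D1 to the 55th at D21.

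The other arm of the hairpin, let-7-3p, was barely detected. Its counts were 13, 1 and 22 at D1, 5, 4 and 7 at D7, 4, 1 and 2 at D14, and 7, 3 and 4 at D21. No age stands apart in these counts. The mean was 0.729 CPM at D1 and 0.577 CPM at D21, so a fall as large as that of let-7-5p was not seen. At this depth a small change of let-7-3p could not be detected, and the arm was not tested by edgeR.

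miR-241 followed let-7 downward on both of its arms. miR-241-5p, which in larvae acts with miR-48 and miR-84, stood at 1946, 4653 and 2538 CPM at D1, at 915, 675 and 795 CPM at D7, at 280, 504 and 331 CPM at D14, and at 356, 220 and 150 CPM at D21. The D1 libraries were all above the D7 libraries and these all above the later ones, with D1 replicate 2 far above the other D1 libraries. The log2 fold change against D1 was -1.94 at D7 (SE 0.37, adjusted p = 7.4e-04 from edgeR), -3.03 at D14 (SE 0.39, adjusted p = 1.0e-05) and -3.65 at D21 (SE 0.40, adjusted p = 2.1e-06), and the mean at D21 was 12.6-fold below that at D1. Without D1 replicate 2 it was -3.35 at D21. Between D7 and D14 the log2 fold change of miR-241-5p was -1.10 (edgeR, adjusted p = 0.0258), a call that was lost when D7 replicate 1, D7 replicate 3, D14 replicate 1 or D14 replicate 3 was left out (adjusted p from 0.00848 to 0.0974 over the alternatives). The passenger arm miR-241-3p was less abundant and went the same way. It stood at 196, 424 and 254 CPM at D1 and at 29.0, 23.4 and 18.5 CPM at D21, with 81.4, 75.7 and 99.2 CPM at D7 and 24.4, 43.9 and 36.5 CPM at D14. Its log2 fold change was -1.77 at D7 (SE 0.31, adjusted p = 3.9e-04 from edgeR), -3.06 at D14 and -3.62 at D21 (SE 0.34, adjusted p = 4.7e-07), and between D7 and D14 it was -1.29 (adjusted p = 0.00512 from edgeR).

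**Figure D2:**
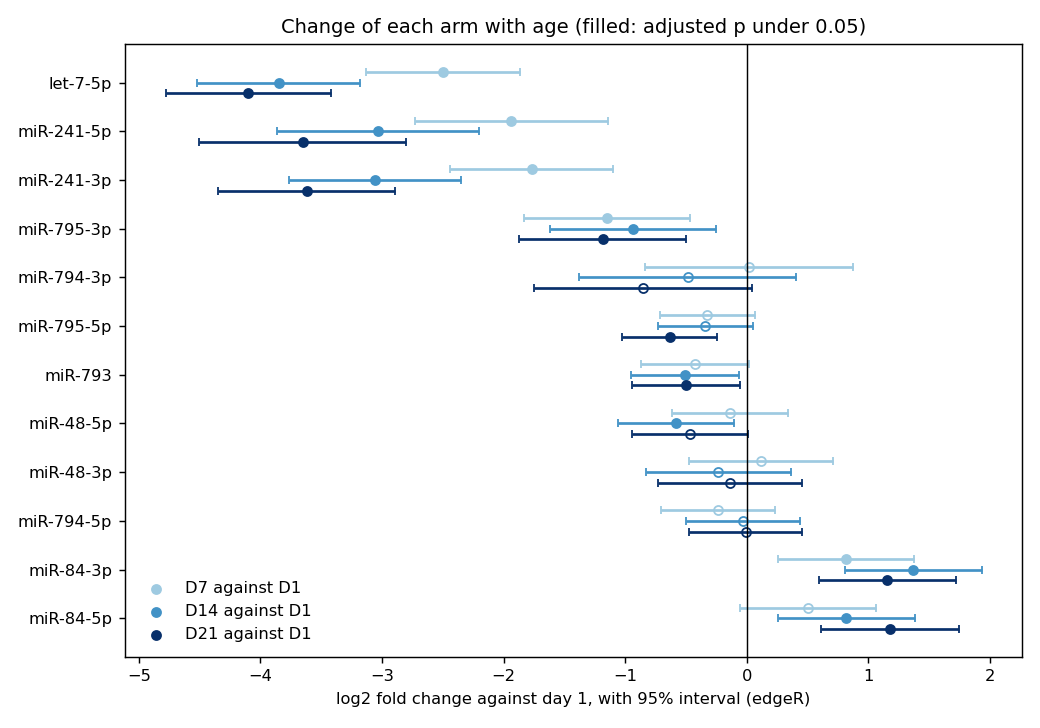
Log2 fold change against D1 (x axis) of the 12 arms tested (y axis), at D7, D14 and D21, with the 95% interval of the edgeR fit. Filled points have an adjusted p under 0.05. let-7-5p and both arms of miR-241 lie below -1.7 at every age, and both arms of miR-84 lie above 0.

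miR-48-5p comes from the gene next to *mir-241*, on the same strand, but its differences from D1 were small beside those of miR-241. It stood at 27261, 17524 and 30364 CPM at D1, at 23212, 25611 and 19602 CPM at D7, at 16368, 16718 and 17087 CPM at D14, and at 20587, 15871 and 18021 CPM at D21. It was the most abundant member at every age, and its D7 and D21 libraries overlapped those of D1. Its lowest D1 library was replicate 2, which was the highest for miR-241-5p. The log2 fold change was -0.14 at D7 (SE 0.22, adjusted p = 0.691 from edgeR), or -0.51 without D1 replicate 2 (adjusted p = 0.0593), and -0.46 at D21 (SE 0.22, adjusted p = 0.0721, 95% interval -0.94 to 0.01). At D14 it was -0.58 (SE 0.22, adjusted p = 0.032 from edgeR), past the threshold, but this call was lost when only the 2 ages were fitted or when D1 replicate 1, D1 replicate 3, D14 replicate 1 or D14 replicate 2 was left out (adjusted p from 0.00115 to 0.112 over the alternatives). The D14 value was -0.93 without D1 replicate 2 and -0.94 with libraries scaled by their totals. At D21 the arm was called lower without D1 replicate 2 (-0.80, adjusted p = 0.00313 from edgeR), without D21 replicate 1 (-0.68, adjusted p = 0.0377), with libraries scaled by their totals (-0.67, adjusted p = 0.0497) and with no filter on low counts (-0.62, adjusted p = 0.0347). Its passenger arm miR-48-3p averaged 23.8 CPM at D1 and 20.4 to 26 CPM at the later ages, and none of its comparisons passed the threshold.

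The ratio of the neighbors *mir-48* and *mir-241* within a library does not depend on how libraries are scaled, and it changed with age. There were 14, 3.77 and 12 counts of miR-48-5p for each count of miR-241-5p at D1, 25.4, 37.9 and 24.6 at D7, 58.4, 33.1 and 51.6 at D14, and 57.8, 72.2 and 120 at D21. All D7 libraries lay above all D1 libraries, and the D21 libraries overlapped those of D14 by little. On the log2 scale the mean ratio went from 3.10 ± 1.03 (SD, n = 3) to 6.31 ± 0.54, a difference of 3.21 (exact permutation test of the one-way F over the 4 ages, adjusted p = 4.9e-04 over the 6 pairs of members compared). The p-values of this and of all ratios that follow are those of the F over the 4 ages, not of D21 against D1 alone. Leaving out any 1 library gave a difference of 2.62 to 3.56, and the F test passed each time.

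miR-84 was the member that rose. miR-84-5p, which in larvae shares the targets of miR-48 and miR-241, stood at 3595, 2092 and 4048 CPM at D1, at 4389, 5249 and 4140 CPM at D7, at 7176, 4705 and 5271 CPM at D14, and at 6029, 7231 and 8736 CPM at D21. Every later library lay above every D1 library, and every D21 library above every D7 library. The log2 fold change against D1 was 0.50 at D7 (SE 0.26, adjusted p = 0.145 from edgeR; 0.093 without D1 replicate 2), 0.82 at D14 (SE 0.26, adjusted p = 0.0134) and 1.18 at D21 (SE 0.26, adjusted p = 0.00122), with a mean at D21 of 2.26 times that at D1. The call at D21 held under every alternative, with the log2 fold change at 0.80 without D1 replicate 2 (adjusted p = 0.00886 from edgeR). The call at D14 did not hold when libraries were scaled by their totals alone (0.43, adjusted p = 0.222 from edgeR) or when D1 replicate 2 (0.43), D14 replicate 1 (0.55) or D14 replicate 3 (0.70) was left out, with adjusted p = 0.0708 to 0.139 for these 3 libraries. D21 was also above D7, with a log2 fold change of 0.67 (SE 0.26, edgeR adjusted p = 0.0432). This call was lost when any of the D7 libraries, D14 replicate 2 or 3, or D21 replicate 2 or 3 was left out. It was also lost with scaling by total counts and with no filter on low counts (edgeR adjusted p up to 0.186). With the replicate number as an added term it was lost too (edgeR adjusted p = 0.0574).

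The passenger arm miR-84-3p rose beside it at a far lower level. It stood at 34.3, 52.8 and 30.6 CPM at D1, at 69.3, 70.5 and 66.0 CPM at D7, at 120, 95.3 and 86.8 CPM at D14, and at 81.5, 110 and 69.1 CPM at D21. Every later library lay above every D1 library. The log2 fold change was 0.81 at D7 (SE 0.26, adjusted p = 0.0221 from edgeR), 1.37 at D14 (SE 0.26, adjusted p = 4.0e-04) and 1.16 at D21 (SE 0.26, adjusted p = 0.00128). The call at D7 was lost without D1 replicate 1, D1 replicate 3 or D7 replicate 2, or with a fit of only the 2 ages (adjusted p from 0.00729 to 0.1 over the alternatives), and those at D14 and D21 held under every alternative.

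The minor members *mir-793*, *mir-794* and *mir-795* changed little beside let-7 and miR-241. miR-795-5p stood at 273, 331 and 294 CPM at D1 and at 199, 183 and 197 CPM at D21, with 228 to 246 CPM at D7 and 226 to 251 CPM at D14. Its log2 fold change was -0.63 at D21 (SE 0.18, adjusted p = 0.00653 from edgeR), and -0.33 at D7 (adjusted p = 0.174) and -0.34 at D14 (adjusted p = 0.109), where it was called lower with libraries scaled by their totals (-0.64, adjusted p = 0.0207 from edgeR), with at least 10 counts in every library and with DESeq2. miR-795-3p, on 24 to 145 counts per library, averaged 10.3 ± 4.62 CPM (SD, n = 3) at D1, with 15.6 CPM in replicate 2 and 7.62 and 7.65 CPM in the others. It averaged 4.54 ± 0.24 CPM at D7, 5.25 ± 0.79 at D14 and 4.44 ± 0.94 at D21, with log2 fold changes of -1.15, -0.94 and -1.19 against D1 (SE 0.32 each, adjusted p = 0.0105, 0.0184 and 0.00422 from edgeR). All later libraries of both miR-795 arms lay below all D1 libraries. The D14 call of miR-795-3p was lost in a fit of only the 2 ages (adjusted p = 0.0709 from edgeR).

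miR-793 stood at 190, 190 and 265 CPM at D1, at 155 to 164 CPM at D7, at 130 to 162 CPM at D14 and at 139 to 161 CPM at D21. Its later libraries all lay below those of D1, by less than those of miR-241. The log2 fold change was -0.43 at D7 (adjusted p = 0.115 from edgeR), -0.51 at D14 (adjusted p = 0.041) and -0.50 at D21 (adjusted p = 0.043). At D7 it was called lower without D1 replicate 2 (-0.68, adjusted p = 0.0175 from edgeR) and in 6 other alternatives. The D14 value was -0.84 with libraries scaled by their totals, and its call was lost without D1 replicate 3 or D14 replicate 3 or with a fit of only the 2 ages. The D21 call was lost without D1 replicate 3 (adjusted p = 0.0868 from edgeR) or D21 replicate 2 (adjusted p = 0.0508). With the replicate number as an added term, neither call passed (edgeR adjusted p = 0.0649 at D14 and 0.0669 at D21). For miR-794-5p no comparison passed the threshold. Its mean was 31.8 CPM at D1, 26.9 at D7, 31.0 at D14 and 31.5 at D21, and the log2 fold change at D21 was -0.01 with a 95% interval of -0.48 to 0.46. miR-794-3p averaged 4.67 CPM at D1 and 2.47 CPM at D21 on 4 to 89 counts per library, and its log2 fold change at D21 was -0.85 (adjusted p = 0.0766 from edgeR). The value was -0.48 without D21 replicate 2, and the arm was called lower without D21 replicate 1 (-1.26, adjusted p = 0.0397 from edgeR) and with no filter on low counts (-1.0, adjusted p = 0.0434).

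From the courses of the members the order of their levels changed once, between D1 and D7. At D1 the order of the means was miR-48-5p, let-7-5p, miR-84-5p, miR-241-5p, miR-795-5p, miR-793 and miR-794-5p. miR-84-5p and miR-241-5p were neighbors at D1 that did not differ beyond their spread, with 3245 ± 1024 and 3046 ± 1423 CPM (SD, n = 3) and miR-84-5p above miR-241-5p in 2 of the 3 libraries. From D7 on, miR-84-5p came before let-7-5p, and the rest of the order was as at D1. let-7-5p was above miR-241-5p in 3 of 3 libraries at each age, although their ranges overlapped at D14 and at D21. By D21 miR-241-5p, at 242 ± 105 CPM, no longer differed beyond the spread from miR-795-5p, at 193 ± 8.76 CPM, and was above it in 2 of 3 libraries.

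**Figure D3:**
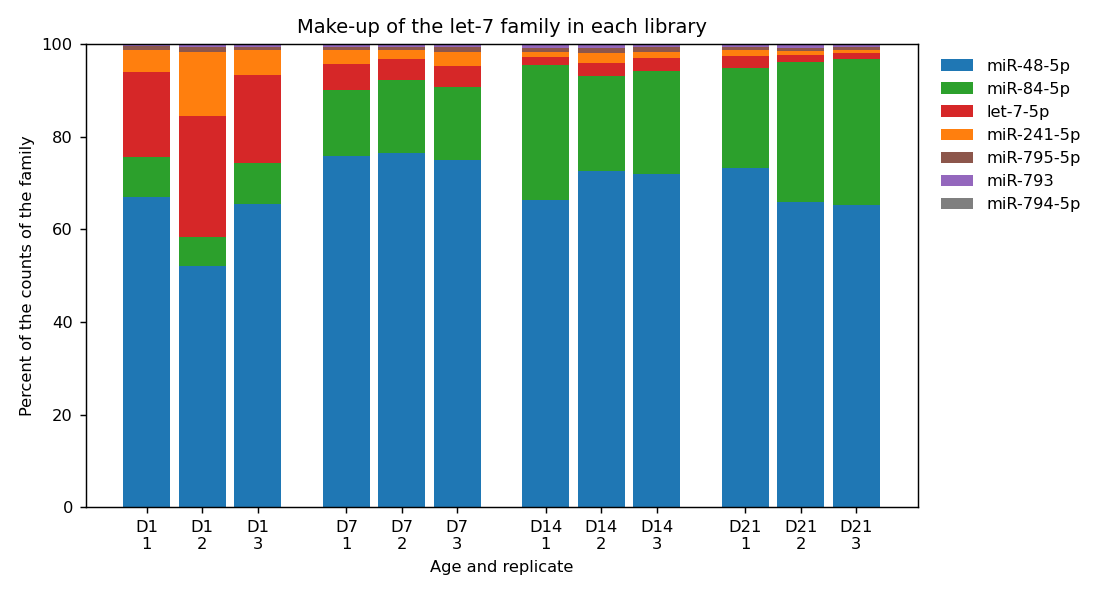
Make-up of the family in each of the 12 libraries (x axis: age and replicate), as the percent of the counts of the 7 seed-bearing arms that each arm held (y axis, 0 to 100). let-7-5p held 18.3 to 26.2% at D1 and 1.39 to 2.57% at D21, and miR-84-5p 6.22 to 8.82% and 21.5 to 31.6%.

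The make-up of the family shifted from let-7-5p to miR-84-5p, while miR-48-5p held most of the counts throughout. Of the counts of the 7 seed-bearing arms, let-7-5p held 21.2% ± 4.35 (SD, n = 3) at D1, 4.90% ± 0.48 at D7, 2.45% ± 0.66 at D14 and 1.81% ± 0.66 at D21. miR-241-5p held 8.03% ± 5.04 at D1, 2.68% ± 0.58 at D7 and 0.91% ± 0.36 at D21. miR-84-5p held 7.92% ± 1.48 at D1, 15.3% ± 0.81 at D7, 23.9% ± 4.58 at D14 and 27.7% ± 5.45 at D21. miR-48-5p held 61.5% ± 8.16 at D1, 75.7% ± 0.81 at D7 and 68.2% ± 4.49 at D21. The shares of miR-793, miR-794-5p and miR-795-5p were small at every age, with none of them above 1.06% of the family in any library. The 3p arms of the 6 hairpins with 2 arms, miR-793 aside, held 0.654, 1.5 and 0.705% of the reads of the family in the D1 libraries and 0.507, 0.654 and 0.425% in those of D21, so the ages met at 0.654% and D1 replicate 2 alone was far above the rest.

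The family as a whole held a smaller mean share of the microRNA counts at the later ages than at D1, but the test of this depended on the setting. Its 7 seed-bearing arms took 5.48, 2.98 and 5.21% of all counts in the D1 libraries, 2.97, 3.72 and 2.71% at D7, 1.94, 2.02 and 2.43% at D14, and 2.92, 2.11 and 2.88% at D21. D1 replicate 2, with the smallest total, lay among the later libraries, but above all of those of D14 and D21. The share differed over the 4 ages (F = 6.03, exact permutation p = 0.0223, 12 libraries). No pair of ages could pass the threshold, since the smallest p that 3 against 3 can give is 0.1. Against D1 the log2 difference was -1.05 at D14 and -0.75 at D21 (exact permutation p = 0.1 for both), and -0.50 at D7 (p = 0.2). The miR-35 family, found in germline and embryos, moved the other way, with its 3p arms at 2.25% ± 0.29 of the counts at D1 and at 20.8% ± 0.98 at D21. With the miR-35 arms left out of the total, the log2 difference of the let-7 family between D21 and D1 was -0.45, and the F test over the 4 ages no longer passed the threshold (exact permutation p = 0.0922). The F test over the 4 ages gave an exact permutation p = 0.0525 without D1 replicate 1, where the difference between D21 and D1 was -0.59, and p = 0.00221 without D1 replicate 2, where it was -1.04.

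Of the 6 ratios between the 4 abundant members, 5 changed over the ages. The ratios are linked, since those of let-7-5p to miR-48-5p and of miR-48-5p to miR-84-5p give that of let-7-5p to miR-84-5p. The 5 are thus not independent findings. A ratio shows that the courses of a pair differ, not which member rose, fell or stayed level. The log2 ratio of let-7-5p to miR-84-5p was 1.06, 2.07 and 1.12 at D1, -1.39, -1.77 and -1.77 at D7, -4.10, -2.81 and -3.02 at D14, and -3.06, -4.36 and -4.50 at D21. let-7-5p was thus ahead of miR-84-5p in every D1 library and behind it in all 9 others. The mean ratio differed by -5.39 between D21 and D1 (exact permutation test of the one-way F over 4 ages, adjusted p = 4.9e-04). The ratio of let-7-5p to miR-48-5p changed from -1.55 ± 0.48 (SD, n = 3) to -5.29 ± 0.40 on the log2 scale (exact permutation test, adjusted p = 4.9e-04). That of miR-48-5p to miR-84-5p fell from 2.97 ± 0.09 to 1.32 ± 0.40 (exact permutation test, adjusted p = 0.00117), and that of miR-84-5p to miR-241-5p rose by 4.86 (exact permutation test, adjusted p = 4.9e-04). These 5 tests passed with each library left out in turn.

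**Figure D4:**
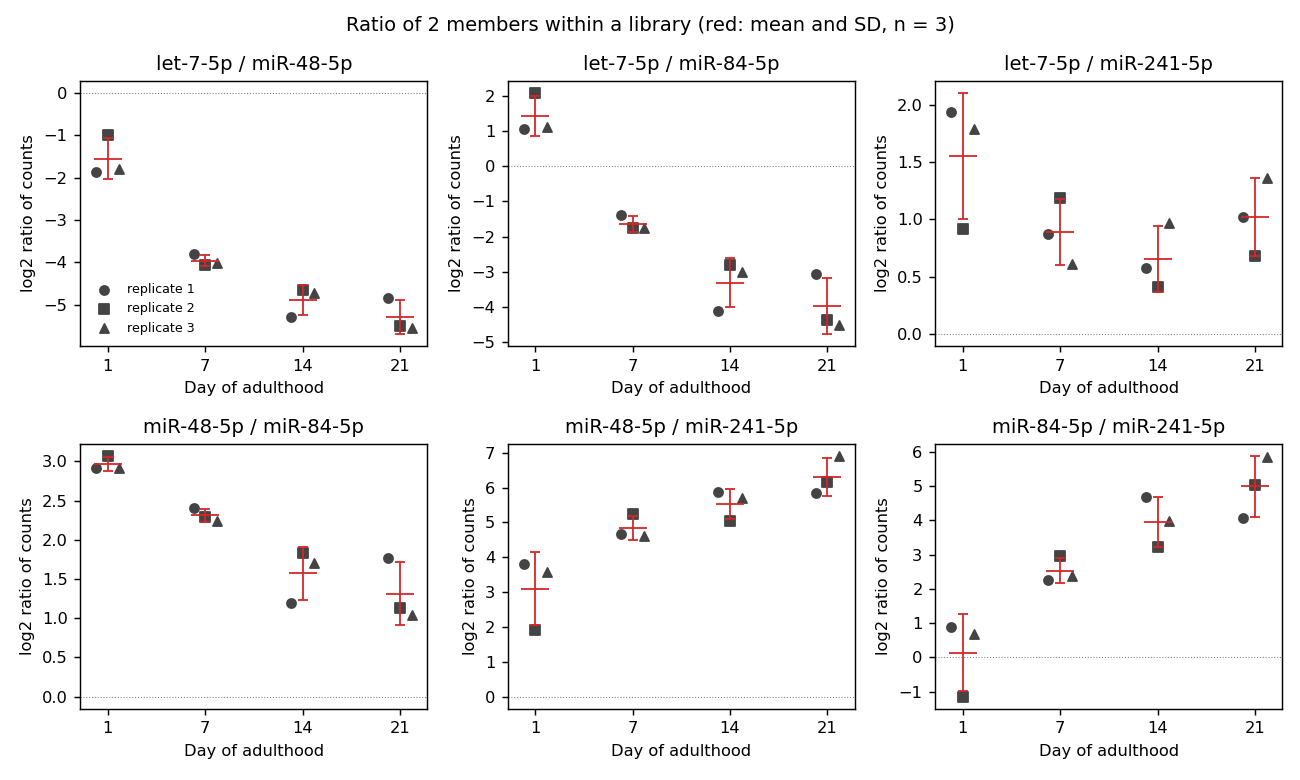
Log2 ratio of the counts of 2 members within a library (y axis, one scale per panel, dotted line at 0 where the counts are equal) against the day of adulthood, for the 6 pairs of the 4 abundant members, with a point for each library and the mean ± SD of 3 libraries. let-7-5p over miR-84-5p crosses 0 between D1 and D7, and let-7-5p over miR-241-5p stays between 0.41 and 1.94 in all libraries.

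The exception was the pair of falling members. The log2 ratio of let-7-5p to miR-241-5p was 1.94, 0.92 and 1.79 at D1, 0.87, 1.19 and 0.61 at D7, 0.58, 0.41 and 0.97 at D14, and 1.02, 0.68 and 1.36 at D21. The D1 libraries overlapped those of every later age. The mean differed by -0.53 between D21 and D1 (exact permutation test, adjusted p = 0.0946), which does not show that the courses were the same. Without D1 replicate 2, the library with the most miR-241-5p, the difference was -0.85 and the F test passed the threshold (exact permutation test, adjusted p = 0.0183).

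Arms of a hairpin come from a common precursor, and for most of the family no change in the ratio of the arms passed the threshold in the main test. For miR-241 there were 9.93, 11 and 9.98 counts of the 5p arm for each count of the 3p arm at D1 and 12.2, 9.36 and 8.11 at D21, and the log2 ratio kept within 3.0 to 3.61 in the 12 libraries while both arms fell (difference between D21 and D1 -0.08, exact permutation test, adjusted p = 0.721 over the 6 hairpins). For miR-84 there were 105, 39.6 and 132 counts of the 5p arm per count of the 3p arm at D1 and 73.9, 65.5 and 126 at D21, a log2 difference of 0.05 (exact permutation test, adjusted p = 0.632) that was -0.47 without D1 replicate 2. For miR-48 the log2 ratio was 10.1 ± 0.14 (SD, n = 3) at D1 and 9.71 ± 0.08 at D21 (exact permutation test, adjusted p = 0.163), with every D21 library below every D1 library. Without D14 replicate 2, with the same difference of -0.36, the F test of miR-48 passed (exact permutation test, adjusted p = 0.0173). The difference was 0.50 for miR-795 (exact permutation test, adjusted p = 0.163). Its D7 libraries, with 50.6 to 53.3 counts of the 5p arm per count of the 3p arm, all lay above those of D1 (21.1 to 38.3). For miR-794 the difference between D21 and D1 was 1.17 (exact permutation test, adjusted p = 0.17), with every D21 library above every D1 library. It was 0.38 without D21 replicate 2, which had 4 counts of the 3p arm and the highest ratio.

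*let-7* was the only hairpin whose arm ratio passed the threshold in the main test, with a 3p arm of very few counts. There were 8645, 30025 and 7415 counts of let-7-5p for each count of let-7-3p at D1, 2219, 3005 and 1230 at D7, 494, 2910 and 1765 at D14, and 1139, 602 and 537 at D21, with 0.5 added to every count. The log2 ratio fell by 4.12 between D1 and D21 (exact permutation test, adjusted p = 0.0234). It rests on the 1 to 22 counts of let-7-3p, and the test no longer passed without D1 replicate 2 (difference -3.48, adjusted p = 0.105, exact permutation test), D7 replicate 1 or 2, D14 replicate 3, or D21 replicate 2 or 3 (adjusted p from 0.0506 to 0.0655).

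**Figure D5:**
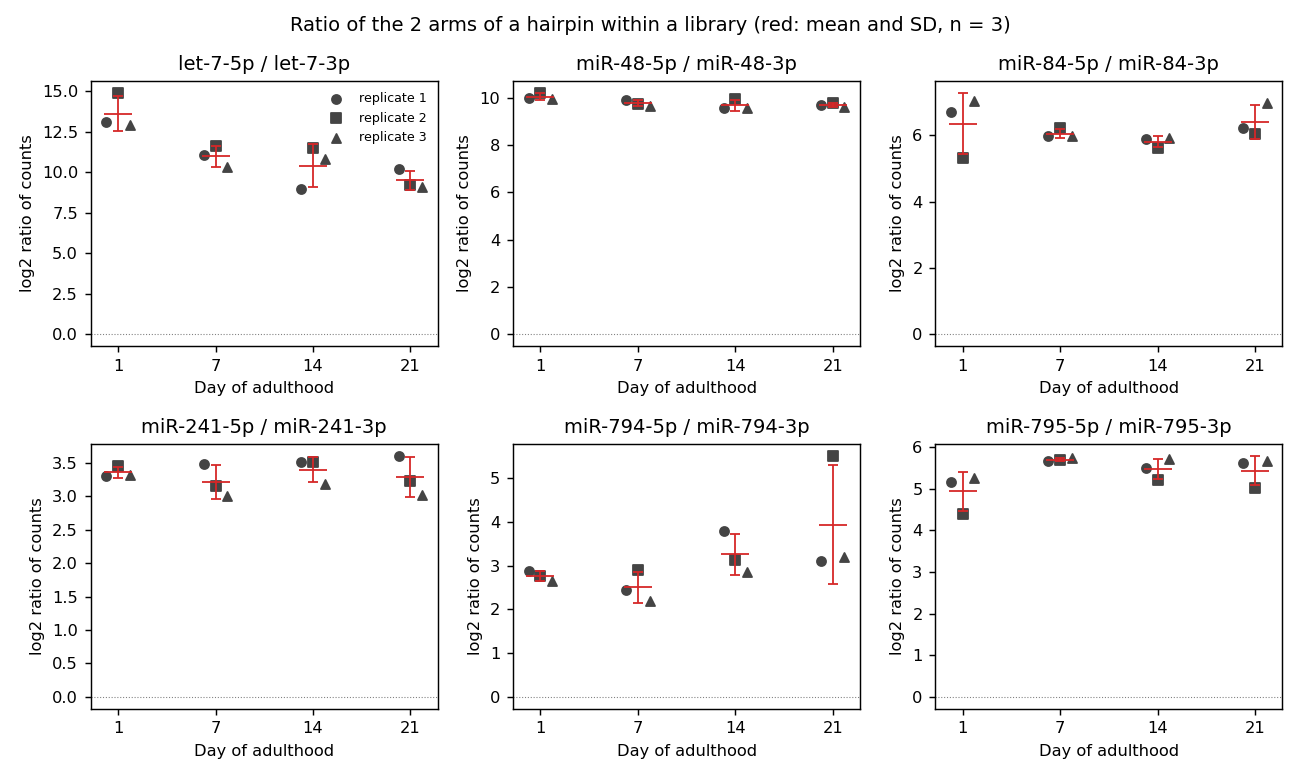
Log2 ratio of the counts of the 5p arm to those of the 3p arm within a library (y axis, from 0, one scale per panel) against the day of adulthood for the 6 hairpins with 2 arms, with a point for each library and the mean ± SD of 3 libraries. The ratio of *let-7* falls from 13.6 ± 1.11 at D1 to 9.49 ± 0.58 at D21, and that of *mir-241* stays near 3.3.

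No member differed past the threshold between D14 and D21. At D14 against D7, 0 arms were higher and 3 were lower (let-7-5p and both arms of miR-241), beside 24.1% and 17.1% of all microRNAs (59 and 42, or 44 and 55 with libraries scaled by their totals), and at D21 against D7 1 was higher (miR-84-5p) and 3 lower (let-7-5p and both arms of miR-241), beside 27.3% and 24.9%. At D21 against D14 edgeR called 0 of the 12 arms and 0% of the 245 microRNAs. Before adjustment, 0 arms and 12 microRNAs had a p under 0.05, and the smallest adjusted p was 0.627. DESeq2 called 0 too. The libraries of D14 did not overlap those of D7 for 7 of the 12 arms (62.9% of all microRNAs tested), and those of D21 did not overlap those of D7 for 6 (64.5%). Between D14 and D21 this held for 1 arm, miR-795-5p (9.39%), which was lower in every D21 library. let-7-5p was lowest at D14 in replicate 1 (418 CPM) and highest at D21 in replicate 1 (723 CPM), and miR-84-5p was highest at D14 and lowest at D21 in the same 2 libraries (7176 and 6029 CPM). Over the 245 microRNAs tested, the deviations of these 2 libraries from the means of their ages were opposed (r = -0.654). Whether such spread hid differences between D14 and D21 was not tested. Over the 4 ages together, edgeR called 7 of the 12 arms changed (let-7-5p and both arms of miR-241, miR-84 and miR-795), beside 74.3% of all microRNAs.

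Other microRNAs of the heterochronic pathway, *lin-4* and its relative *mir-237*, went the way of let-7 and miR-241. lin-4-5p, which times the first larval passages by repressing *lin-14*, averaged 4341 ± 706 CPM (SD, n = 3) at D1, 1797 ± 180 at D7, 1111 ± 144 at D14 and 1082 ± 353 at D21, with a log2 difference of -2.0 between D21 and D1 (SE 0.25, edgeR adjusted p = 6.0e-06). miR-237-5p averaged 3727 ± 1126 CPM at D1 and 141 ± 43.3 at D21 (log2 difference -4.73, SE 0.34, edgeR adjusted p = 3.4e-08). miR-237-3p went from 24.5 CPM at D1 to 0.63 CPM at D21, on 4 to 7 counts per library there, and its log2 difference was -5.25 (edgeR adjusted p = 7.4e-08). lin-4-3p had 0 or 1 counts in each library and was not tested. Beside these 3 arms, 35.9% of all microRNAs tested were lower at D21.

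miR-237-5p was also the microRNA outside the family whose levels were most like those of let-7-5p, with Pearson's r of 0.993 between log2 levels over the 12 libraries, followed by miR-788-3p (0.987) and miR-230-5p (0.98). Within the family, r with let-7-5p was 0.969 for miR-241-5p and -0.855 for miR-84-5p. Most like miR-84-5p were miR-74-3p (0.967), miR-83-3p (0.967) and miR-1824-5p (0.957). The 12 points of each correlation share libraries, normalization and the 4 ages, so these values describe a common course with age and carry no test.

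Summed levels of marker microRNAs of tissues are given for the same ages, without a test. The 8 miR-35 family 3p arms, of germline and embryos, summed to 18124 to 21676 CPM at D1 and to 190788 to 249115 CPM at D21. The muscle microRNA *mir-1* (2 arms) summed to 12315 to 13525 CPM at D1 and 5843 to 8897 CPM at D21, and the intestinal *mir-60* (2 arms) to 161 to 548 CPM and 68.6 to 186 CPM. The neuronal *mir-124* and *lsy-6* (3 arms) summed to 9.58 to 13.6 CPM at D1 and 17.7 to 20.8 CPM at D21, and the glial *mir-228* (2 arms) to 14985 to 27458 CPM and 19544 to 38004 CPM. The ranges of D1 and D21 overlapped for *mir-60* and for *mir-228*. In between, *mir-228* summed to 9747 to 13129 CPM at D7 and to 25434 to 43143 CPM at D14. The part of the markers in the courses of the let-7 family was not tested. D1 replicate 2 stood apart from the other D1 libraries in several members: it had the lowest level of miR-48-5p, miR-84-5p and miR-48-3p and the highest of both arms of miR-241, of miR-795-3p and of miR-84-3p. Without it, 2 arms were higher and 7 lower at D21 against D1, beside 79 and 95 of the 252 microRNAs then tested.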

How the data were processed

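Small RNA of whole N2 worms was sequenced at 4 ages with 3 libraries each. Reads were aligned to the worm genome by the authors (TopHat), assigned to known microRNAs (miRDeep) and tested between ages (DESeq), with versions not given in the sources used here. The deposited values are whole counts per mature microRNA and library. The deposited CPM equal count over library total within 0.005 and were not used for tests. The deposited tables of comparisons hold fold changes and p-values of the authors and were not used. How reads that match several related microRNAs were assigned is not given in the sources used here.

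Counts were analysed with edgeR 4.0.16 in R 4.3.3 (TMM, filterByExpr by age with minimum count 10, age as the only term, 8 residual degrees of freedom). Of 368 microRNAs, 245 were tested and 123 left out. Benjamini-Hochberg adjustment covered these 245, and the threshold on the adjusted p was 0.05. For 7 microRNAs on several lines, none of them a member, the line with the largest total was used. Ratios within a library were log2 of counts plus 0.5. They and the share of the family were tested by the exact permutation of the 12 libraries over the ages (369600 arrangements, smallest p 6.5e-05), two-sided, with adjustment over 6 pairs and over 6 hairpins. Between any 2 replicates the chi-square of the counts was at least 214 per degree of freedom, far above sampling noise, and errors are SDs between libraries. The labels call the libraries replicates, and the paper calls them biological, with worms of every time point in each replicate. The main fit held no term for the replicate.

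The text names all arms of the 7 genes, those of *lin-4* and *mir-237*, and the 3 microRNAs most correlated with let-7-5p and with miR-84-5p. Members, lists and tests were chosen with earlier results of these data known. Alternatives were RLE factors, total counts, other filters, DESeq2 1.42.0, a replicate block, summed lines, a fit of 2 ages and each library left out. In simulated counts for D21 against D1, edgeR called 0 of 40 unchanged microRNAs. It called 28.3% of the 53 with a 1.5-fold change, 68.7% of the 67 with a 2-fold change, and 100% of the 65 with a 4-fold change. The simulation used the fit's trend of spread with level, changed D21 only, and held no library set apart like D1 replicate 2. These rates therefore need not hold for the real counts.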

Additional observations from a re-analysis of the deposited data

How the results depend on the processing

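The calls at D21 against D1 of let-7-5p and of both arms of miR-241, miR-84 and miR-795 held under every alternative run, DESeq2 included. With libraries scaled by their totals alone, the median microRNA stood at -0.41 in place of -0.12 (log2) at D14 and at -0.26 in place of -0.06 at D21, each against D1. Counts of members called moved with several settings. With only the 2 ages compared, 0 arms were higher at D7 against D1 (48 of all 233 microRNAs tested), 3 lower at D14 against D1 (69 of 229) and 1 higher at D14 against D7 (67 of 227). With total counts, 1 was higher at D14 against D1 (69 of 245), and with total counts, no filter or the replicate block 0 were higher at D21 against D7 (58 of 245, 64 of 335 and 63 of 245). Without the miR-35 family 3p arms the log2 share of the family differed by -0.45 between D21 and D1 (F over the 4 ages, exact permutation p = 0.0922).

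The paper's methods describe 3 biological replicates, each with worms picked at every time point, so a replicate number may span the 4 ages. No label ties libraries of a replicate number to a shared batch or day. In the counts 5 of 18 same-numbered pairs had a correlation of deviations over 0.1 (-0.654 to 0.415), and 3 of 12 libraries correlated best with their own number. With so few libraries per age, these correlations cannot decide whether the numbers pair the libraries. With the replicate block the log2 share of the family differed by -0.75 between D21 and D1 (F over the 4 ages, exact permutation p = 0.0712), the arm ratio of miR-795 by 0.50 (F over the 4 ages, adjusted p = 0.0469, exact permutation test), miR-84-5p was not called at D21 against D7 (adjusted p = 0.0574 from edgeR), and miR-793 was not called at D14 (adjusted p = 0.0649 from edgeR) or D21 (0.0669).

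Some small differences changed sign. miR-48-3p at D7 against D1, 0.12, was -0.027 with total counts, -0.024 with summed lines and -0.30 to 0.19 with a library left out. miR-794-3p at D7, 0.02, was -0.078 with total counts, -0.11 with summed lines, -0.064 with only 2 ages and -0.22 to 0.040 with a library left out. miR-794-5p at D14, -0.035, was 0.028 with only 2 ages. With a library left out, members called ranged from 0 to 1 higher at D7 against D1, 1 to 2 higher and 4 to 6 lower at D14 against D1, 0 to 1 higher at D14 against D7 and 0 to 1 higher at D21 against D7. The D21 to D1 difference ranged from -0.85 to -0.34 for let-7-5p over miR-241-5p, from -4.49 to -3.48 for the arms of let-7, -0.41 to -0.28 for those of miR-48, -0.47 to 0.40 for those of miR-84, -0.24 to 0.058 for those of miR-241, 0.38 to 1.59 for those of miR-794, 0.23 to 0.71 for those of miR-795, and from -1.04 to -0.59 for the share of the family. The causes were not tested. Low counts limit let-7-3p, miR-794-3p and miR-795-3p.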
